A study of Arabidopsis thaliana with 2 samples.

Results

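The precursors mir393a and mir394b of Arabidopsis thaliana were examined, which give rise to microRNAs that act on F-box genes. They were taken as all tags listed under these names, 2 of the 153 precursor names in the files. Together they held 202 reads in 17 tags, of which 15 reads (9 tags) came from the fiery library and 187 reads (8 tags) from the wild-type library. The assay, SPARE, ligates an RNA adaptor to the free 5′ ends of RNA and copies the fragments with primers placed downstream in each precursor. The first nucleotide of a tag thus marks a free 5′ end, which need not be a cut that frees the microRNA. One library was made from a mutant given in the labels only as fiery, with no gene or allele named, and one from wild-type Col-0. Each was a mixture of seedlings harvested at 2 weeks with leaves and inflorescences of plants grown for 5 weeks, all at 23 °C with 16 h of light. With 1 library per group no difference between them has a replicate check, and no measurement here checks the genotypes. The 95% intervals are exact and reflect counting alone. Reads were amplified by PCR and carry no molecular identifiers, so they are not independent molecules.

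MicroRNA precursors of plants fold into hairpins that are cut mainly by the nuclear enzyme DICER-LIKE1. A pair of cuts, one nearer the loop and one nearer the base of the stem, frees a duplex of the 5p and the 3p RNA, and either cut can come first. miR393 acts on the mRNAs of TIR1 and its relatives AFB1, AFB2 and AFB3, F-box proteins that bind auxin and target repressors of auxin response for degradation. miR394 acts on the mRNA of LCR (LEAF CURLING RESPONSIVENESS), an F-box gene of leaf shape and of stem cell maintenance in the shoot. In both families the 5p RNA is the one that acts on these targets.

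The mature RNAs are shown 5′ to 3′ in DNA letters from the RefSeq annotation of TAIR10.1, with the seed (bases 2 to 8) in capitals, since they set the cuts that the tags are read against. The first pair lies at chr2:16652111-16652132 and chr2:16652205-16652225, the second at chr1:28568821-28568840 and chr1:28568897-28568917, all on the plus strand.
miR393a-5p: tCCAAAGGgatcgcattgatcc
miR393a-3p: aTCATGCTatctctttggatt
miR394b-5p: tTGGCATTctgtccacctcc
miR394b-3p: aGGTGGGCatactgccaatag
The 5p RNAs of mir393a and mir393b were identical over 22 of 22 nt, seed included, and those of mir394b and mir394a over 20 of 20 nt. The 3p RNAs differed at 1 of 21 nt in each pair. Counted from the 5′ end, with the base of mir393a or mir394b first, the difference was T8G against mir393b and C8T against the matching stretch of mir394a, for which no 3p RNA was annotated.

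The best match to the reverse complement of each 5p RNA in the F-box genes lay in coding sequence. The sites are shown because the name of the group rests on them, with mismatches to full complementarity in capitals.
TIR1: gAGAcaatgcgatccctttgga
AFB1: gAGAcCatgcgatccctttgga
AFB2: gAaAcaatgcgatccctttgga
AFB3: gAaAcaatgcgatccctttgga
LCR: ggaggtTgacagaatgccaa
TIR1 (AT3G62980, exon 3, chr3:23273727-23273748, minus strand) had 3 mismatches in 22 nt, and AFB1 (AT4G03190, exon 3, chr4:1405341-1405362, minus strand) had 4. AFB2 (AT3G26810, exon 3, chr3:9870237-9870258, plus strand) and AFB3 (AT1G12820, exon 4, chr1:4369085-4369106, minus strand) had 2 each. LCR (AT1G27340, exon 2, chr1:9497605-9497624, plus strand) had 1 mismatch in 20 nt. In the 4 auxin receptor genes the mismatches lay towards the 5′ end of the site, which pairs with the 3′ end of miR393.

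The precursors are shown up to the most frequent 3′ end of their tags, with the 5p and 3p RNAs in capitals, so that each cut can be found in its surroundings (mir393a at chr2:16652101-16652257 and mir394b at chr1:28568802-28568965, plus strand).
mir393a: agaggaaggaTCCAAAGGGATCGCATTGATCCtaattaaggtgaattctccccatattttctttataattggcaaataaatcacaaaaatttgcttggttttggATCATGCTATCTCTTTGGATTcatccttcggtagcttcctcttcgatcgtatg
mir394b: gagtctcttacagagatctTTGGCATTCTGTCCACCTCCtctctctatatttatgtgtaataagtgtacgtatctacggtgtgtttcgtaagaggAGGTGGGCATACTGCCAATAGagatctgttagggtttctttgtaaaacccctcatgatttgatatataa
The annotated precursor of mir393a (AT2G39885) ran from 16652101 to 16652233 on chromosome 2, 133 nt. No other annotated gene overlapped it, and the nearest lay 1016 nt downstream (AT2G09085, a non-coding RNA gene on the opposite strand). The annotated precursor of mir394b (AT1G76135) ran from 28568808 to 28568928 on chromosome 1, 121 nt. It too overlapped no other gene, and the nearest lay 131 nt upstream (AT1G09607, a non-coding RNA gene on the opposite strand).

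Of mir393a, 4 of 33192 reads were found in fiery and 140 of 12129 in wild type. These were 0.0121% (0.00328 to 0.0309) of the fiery library and 1.15% (0.972 to 1.36) of the wild-type library. The share was 95.8-fold higher in wild type (36.6 to 356). Of mir394b, 11 reads were found in fiery and 47 in wild type, or 0.0331% (0.0165 to 0.0593) and 0.388% (0.285 to 0.515). This share was 11.7-fold higher in wild type (5.98 to 25). Both precursors were thus more abundant among the wild-type reads, although the fiery library had more reads in all. Both intervals lay above 1, but they take reads as independent, which amplified reads are not. With each distinct tag counted once the ratios were 2.59 (0.188 to 35.8) for mir393a and 2.22 (0.617 to 7.72) for mir394b, with intervals that held 1. The adaptor and primers were the same for both libraries according to the protocol, so the comparison is of the same precursor between libraries; levels of different precursors also depend on their primers and are not compared.

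A higher share in one of the libraries was common. Among 47 precursors that had at least 100 reads when the libraries were added, 18 (38.3%) had a share at least 2-fold higher in wild type and 19 (40.4%) a share at least 2-fold higher in fiery. The ratio of mir393a ranked 2 of these 47 from the wild-type side, after mir447b with 194-fold (74.8 to 715) and before mir447a with 39.6-fold (26.6 to 61.4). These 2 neighbours were picked for their place in this order. The interval of mir393a overlapped those of both. mir394b, with 58 reads, was below that minimum. Among the 81 precursors with at least 30 reads, 32 (39.5%) were at least 2-fold higher in wild type, and mir394b ranked 14. A direction towards wild type alone therefore did not set these precursors apart from the rest.

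**Figure D1:**
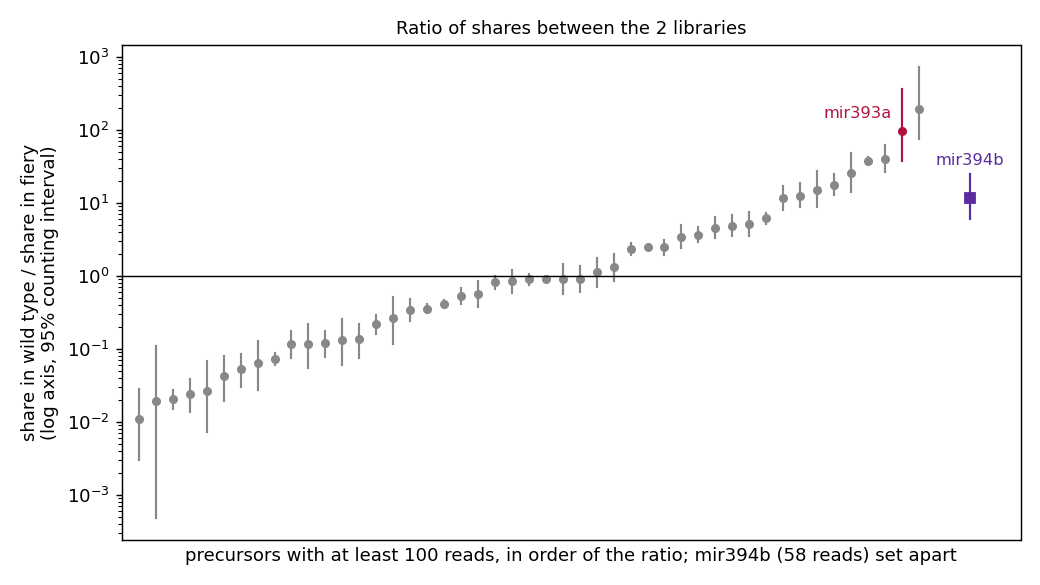
Share of reads in wild type divided by the share in fiery (log axis), with 95% counting intervals, for the 47 precursors with at least 100 reads in order of the ratio, and for mir394b with 58 reads at the right. The point of mir393a (95.8) is the second from the top, and mir394b lies at 11.7; the horizontal line marks equal shares.

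The other precursors of the same families had few reads. mir393b had 24 reads in fiery and 17 in wild type, and its share was 1.94-fold higher in wild type with an interval (0.977 to 3.76) that held 1. With reads taken as independent, the interval of mir393a lay wholly above that of mir393b, the precursor with an identical 5p RNA. With distinct tags counted once the interval of mir393a was 0.188 to 35.8. All reads of mir393a were in tags of 35 nt or less, so these 2 ratios came from unlike tag lengths. mir394a had 5 and 11 reads, a share 6.02-fold higher in wild type (1.93 to 22.1), and its interval overlapped that of mir394b. All reads of mir393b were in tags longer than 35 nt, among which its ratio was 4.37 (2.20 to 8.48). All reads of mir394a were in tags of 35 nt or less, among which its ratio was 2.05 (0.658 to 7.54), an interval that held 1.

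**Figure D2:**
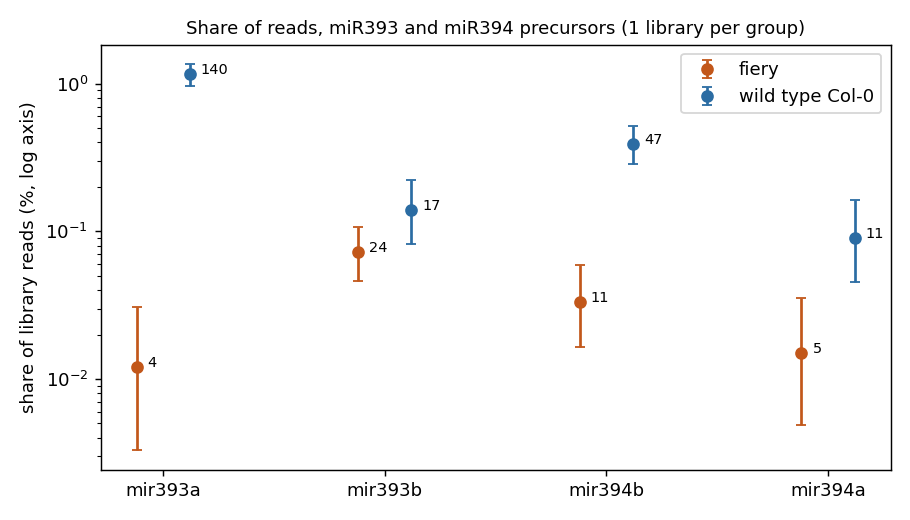
Share of all library reads (percent, log axis) of the miR393 and miR394 precursors in fiery and in wild type, with exact 95% counting intervals and the number of reads beside each point. Each group is 1 library. The intervals of mir393a, mir394b and mir394a do not overlap between the libraries, while those of mir393b do.

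Other precursors whose microRNAs act in auxin response or its targets went in both directions. All 12 of a list of miR160, miR164, miR167 and miR390 precursors were found, and 6 had at least 100 reads. Of these, 1 had a share at least 2-fold higher in wild type and 3 a share at least 2-fold higher in fiery. mir390a, which triggers small RNAs against auxin response factors, was 5.04-fold higher in wild type (3.45 to 7.45). mir160a and mir167b, whose products act on auxin response factors, were 15.7-fold (7.89 to 36.7) and 7.63-fold (3.94 to 17) higher in fiery. mir164b, whose product acts on NAC factors, was 42.4-fold higher in fiery (26.4 to 73.0). Within a family the direction was not uniform. mir160c, with 4 reads in fiery and 36 in wild type, was 24.6-fold higher in wild type (8.83 to 95.3), and mir167c, with 2 and 15 reads, was 20.5-fold higher there (4.77 to 185). The intervals of mir167a and mir167d held 1. With a minimum of 30 reads, 8 of the list were compared, of which 2 were at least 2-fold higher in wild type and 3 in fiery. The median ratio of the 6 was 0.517, wild type over fiery, beside 0.892 over all 47 precursors.

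The libraries differed in the lengths of their tags, which decides which cuts could be read. In fiery 22.4% of reads (21.9 to 22.8) were in tags of 26 to 35 nt, and in wild type 65.6% were (64.7 to 66.4). The fiery tags were otherwise all 40 nt long (25768 reads). In wild type 4022 reads had 50 nt, and only 153 reads had 36 to 45 nt. Lengths of 36 to 39 nt were missing from fiery, and lengths of 46 to 49 nt from wild type. Tags shorter than the longest length before each gap ended at a common 3′ end of their precursor for 98.8% of such reads in fiery and 98.5% in wild type (precursors with such an end, sense tags within 200 nt). That end was itself taken as the most frequent one among such tags of both libraries. These percentages are thus high partly by definition and are no separate check of it. Tags of the full 40 or 50 nt give the beginning of a longer fragment. A fragment that runs from a cut to the common 3′ end is therefore listed only if its length is one that the library lists, or reaches its longest tag. Fragments that end elsewhere follow no such rule, so these lengths are a guide and not a proof of what could be seen.

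Every read of mir393a, 4 in fiery and 140 in wild type, was in a tag of 35 nt or less. Among tags of this length alone the share of mir393a was 32.7-fold higher in wild type (12.5 to 122), smaller than over all reads. mir394b had 5 of 11 reads in such tags in fiery and 32 of 47 in wild type. Its ratio was 5.97 (2.31 to 19.6) among these tags and 15.4 (5.66 to 48.5) among longer ones. The ratios thus moved with the tag lengths counted, and each was above 1 in the tag lengths in which the precursor was found. The longer tags of mir394b were of 40 nt in fiery (6 reads) and of 50 nt in wild type (15 reads). Whether tag length accounts for the ratios was not tested.

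**Figure D3:**
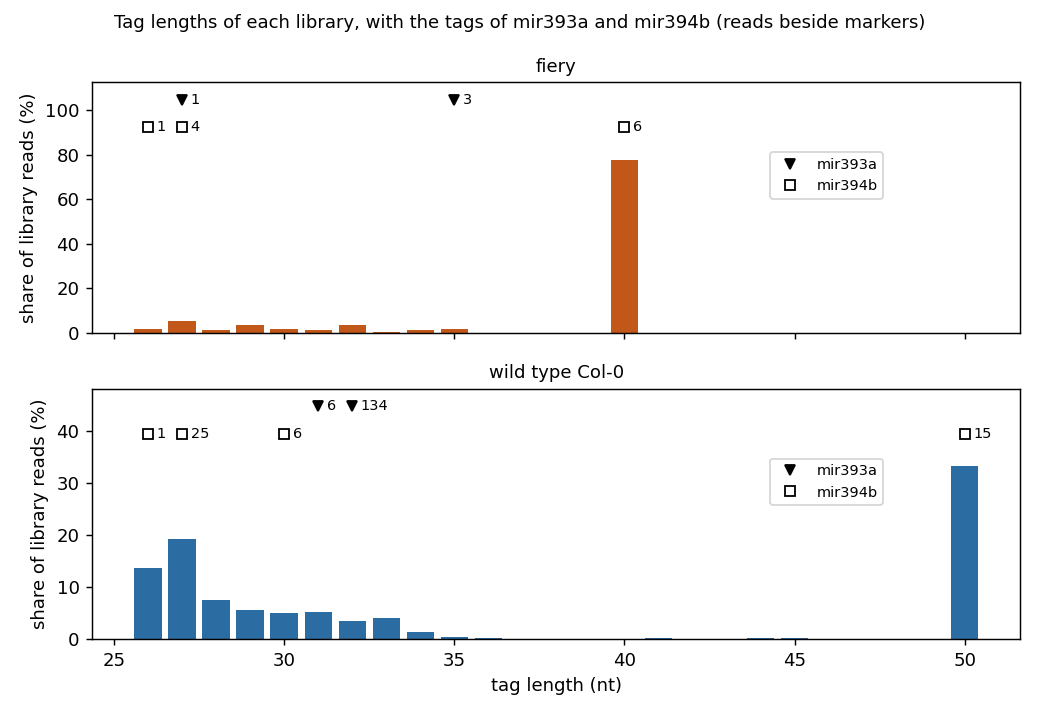
Share of library reads (percent) by tag length (nt) in fiery and in wild type, with markers for the tags of mir393a (triangles) and mir394b (squares) and their reads beside them. Most fiery reads are in tags of 40 nt, and mir393a has no read longer than 35 nt in either library.

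In wild type, the listed ends of mir393a lay at the base-side cut. On the 3′ arm a fragment from the cut nearer the loop (loop-side cut) starts with the 3p RNA, and one from the cut nearer the base (base-side cut) starts just after it. Of the 140 reads, 134 began exactly at the base-side cut, chromosome 2 position 16652226, which is 95.7% (90.9 to 98.4) of them. The remaining 6 reads began at the next nucleotide, so that 140 of 140 lay within 1 nt. The tags were 32 and 31 nt long and ended at the same nucleotide.
mir393a, wild type, 134 reads: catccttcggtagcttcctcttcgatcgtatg
mir393a, wild type, 6 reads: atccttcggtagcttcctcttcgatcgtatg
No read began within 1 nt of the loop-side cut, 0 of 140, which allows a share of up to 2.14% (2.60% by the exact interval). That cut would give fragments of about 53 nt, which both libraries list as tags of their greatest length. Nor did any read begin at the first nucleotide of the 5p RNA. For fragments that run to the common 3′ end, ends 17 to 14 nt before the base-side cut had no listed length in wild type, and the last end with one lay 6 nt beyond the cut. Ends 18 to 22 nt beyond it, as mir394b had, would give tags shorter than any listed. Both orders of cutting end in a base-side 5′ end, and the order was not read from these tags.

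A main end near the base-side cut was usual. It was found in 19 of 34 precursors with at least 30 wild-type reads and 1 annotated 3p RNA (55.9%), mir393a among them, and in 34 of 49 such precursors in fiery (69.4%), where mir393a had too few reads to be counted. The main end of mir393a held a larger part of its reads than most: its 95.7% ranked 2 of 44 precursors, beside a median of 58% over these. It had 2 ends, and the median was 7. With a base-side fragment of 32 nt, ends of mir393a were readable only to 6 nt beyond the cut, for fragments that run to the common 3′ end. Precursors with longer fragments could show ends farther on, as mir172a did (56 nt, main end 30 nt beyond the cut). The ranking and the count of ends thus compare unlike readable stretches. In the fold of mir393a (RNAfold) the nucleotide at the base-side cut paired with the nucleotide 3 nt before the first one of the 5p RNA, also with 30 to 150 nt of flank on each side. The 3p RNA thus reached 2 nt past the partner of the first nucleotide of the 5p RNA, the overhang usual for cuts by this class of enzyme. That partner lay 3 nt before the base-side cut in mir393a and mir393b. In mir394b and mir394a it lay 4 nt before the cut, so the 3p RNA of mir394b reached farther past it.

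In fiery, none of the 4 reads of mir393a lay at either cut. A tag of 35 nt with 3 reads began within the 3p RNA, 10 nt before the base-side cut (position 16652216), and a tag of 27 nt with 1 read began 5 nt beyond it (position 16652231). In the tags below, capitals mark the part that belongs to the 3p RNA.
mir393a, fiery, 3 reads: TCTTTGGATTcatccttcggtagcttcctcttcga
mir393a, fiery, 1 read: ttcggtagcttcctcttcgatcgtatg
The longer tag did not reach the common 3′ end but stopped 7 nt before it. Among fiery tags of 35 nt this was frequent: 15 of 29 did not end at the common 3′ end of their precursor. The tags of 31 and 32 nt that carried the base-side cut in wild type had lengths well listed in fiery, with 449 and 1193 reads of all precursors. With 4 reads, however, a count of 0 at the base-side cut allows a share of up to 75% (60.2% by the exact interval). The sites could therefore not be compared between the libraries. mir393a shared 0 of its 5′ ends between them, and the number shared by precursors in general is not given here.

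For mir394b the main end lay beyond the base-side cut, in a stretch outside the tag lengths listed for mir393a. In wild type 25 of 47 reads, 53.2% (38.1 to 67.9), began at chromosome 1 position 28568939, 21 nt beyond the base-side cut and 11 nt past the end of the annotated precursor. In fiery the same end was the most frequent one, with 4 of 11 reads, 36.4% (10.9 to 69.2). One read in each library began at the next nucleotide, and in wild type 6 reads began 3 nt before it (18 nt beyond the cut, position 28568936). All of these tags, of 26, 27 and 30 nt, ended at the same nucleotide, position 28568965.
mir394b, 25 reads in wild type and 4 in fiery: taaaacccctcatgatttgatatataa
mir394b, 6 reads in wild type: ttgtaaaacccctcatgatttgatatataa
Ends 18 to 22 nt beyond the base-side cut held 32 of 47 wild-type reads (68.1%) and 5 of 11 fiery reads (45.5%). A main end 20 to 23 nt beyond the cut was found in 4 of 34 precursors in wild type (11.8%), mir394b included, and in 4 of 49 in fiery (8.16%), where mir394b was below 30 reads.

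The base-side cut of mir394b fell on a length missing from wild type. Measured to the common 3′ end it would give a fragment of 48 nt, and the ends from 1 nt before to 2 nt after the cut would give 49 to 46 nt, the lengths that no wild-type tag has. A count of 0 of 47 was found there, which bears only on fragments of other lengths and gives no limit for those that end at the common 3′ end. Such a cut fell on a missing length in 3 of 31 wild-type precursors (9.68%), mir394b, mir167a and mir841. Both of the others still had wild-type reads exactly at the cut, mir167a 4 of 35 and mir841 7 of 32. These were tags of 50 nt that reached 3 nt (mir167a) and 1 nt (mir841) past the common 3′ end, and in mir841 they formed the main end. In fiery the same cut would be listed by its first 40 nt, and 0 of 11 reads lay within 1 nt of it. This allows a share of up to 27.3% (28.5% by the exact interval). For fragments that run to the common 3′ end, the fiery library in turn had no listed length for ends 9 to 12 nt beyond the cut. Tags of 26 to 35 nt that end at the common 3′ end can begin only 13 to 22 nt beyond the cut. Such tags hold all reads that begin 18 to 22 nt beyond the cut, so their place in that stretch follows from their length.

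Upstream of the base-side cut the loop-side end was readable in both libraries. No read of mir394b began within 2 nt of the first nucleotide of the 3p RNA, 0 of 47 in wild type and 0 of 11 in fiery. The wild-type count allows up to 6.38% (7.55% by the exact interval). Both libraries did show an end 3 nt inside the 3p RNA, at position 28568900. It held 7 of 47 wild-type reads, 14.9% (6.20 to 28.3), and 2 of 11 fiery reads, 18.2% (2.28 to 51.8). In the tags below the part within the 3p or the 5p RNA is in capitals.
mir394b, wild type, 7 reads, end inside the 3p RNA: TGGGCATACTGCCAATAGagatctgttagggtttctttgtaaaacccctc
mir394b, wild type, 7 reads, end before the 5p RNA: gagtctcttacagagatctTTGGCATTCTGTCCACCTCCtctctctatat
mir394b, fiery, 1 read, end before the 5p RNA: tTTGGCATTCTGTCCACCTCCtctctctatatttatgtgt
On the 5′ side the listed ends were not the same in the 2 libraries. In wild type 7 reads began 19 nt before the 5p RNA, at position 28568802, outside the annotated precursor. In fiery 1 read began 1 nt before the 5p RNA, at position 28568820. A count of 0 of 11 fiery reads at the wild-type end allows up to 27.3% (28.5% by the exact interval). This is more than the 14.9% found in wild type, so these ends could not be compared between the libraries.

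**Figure D4:**
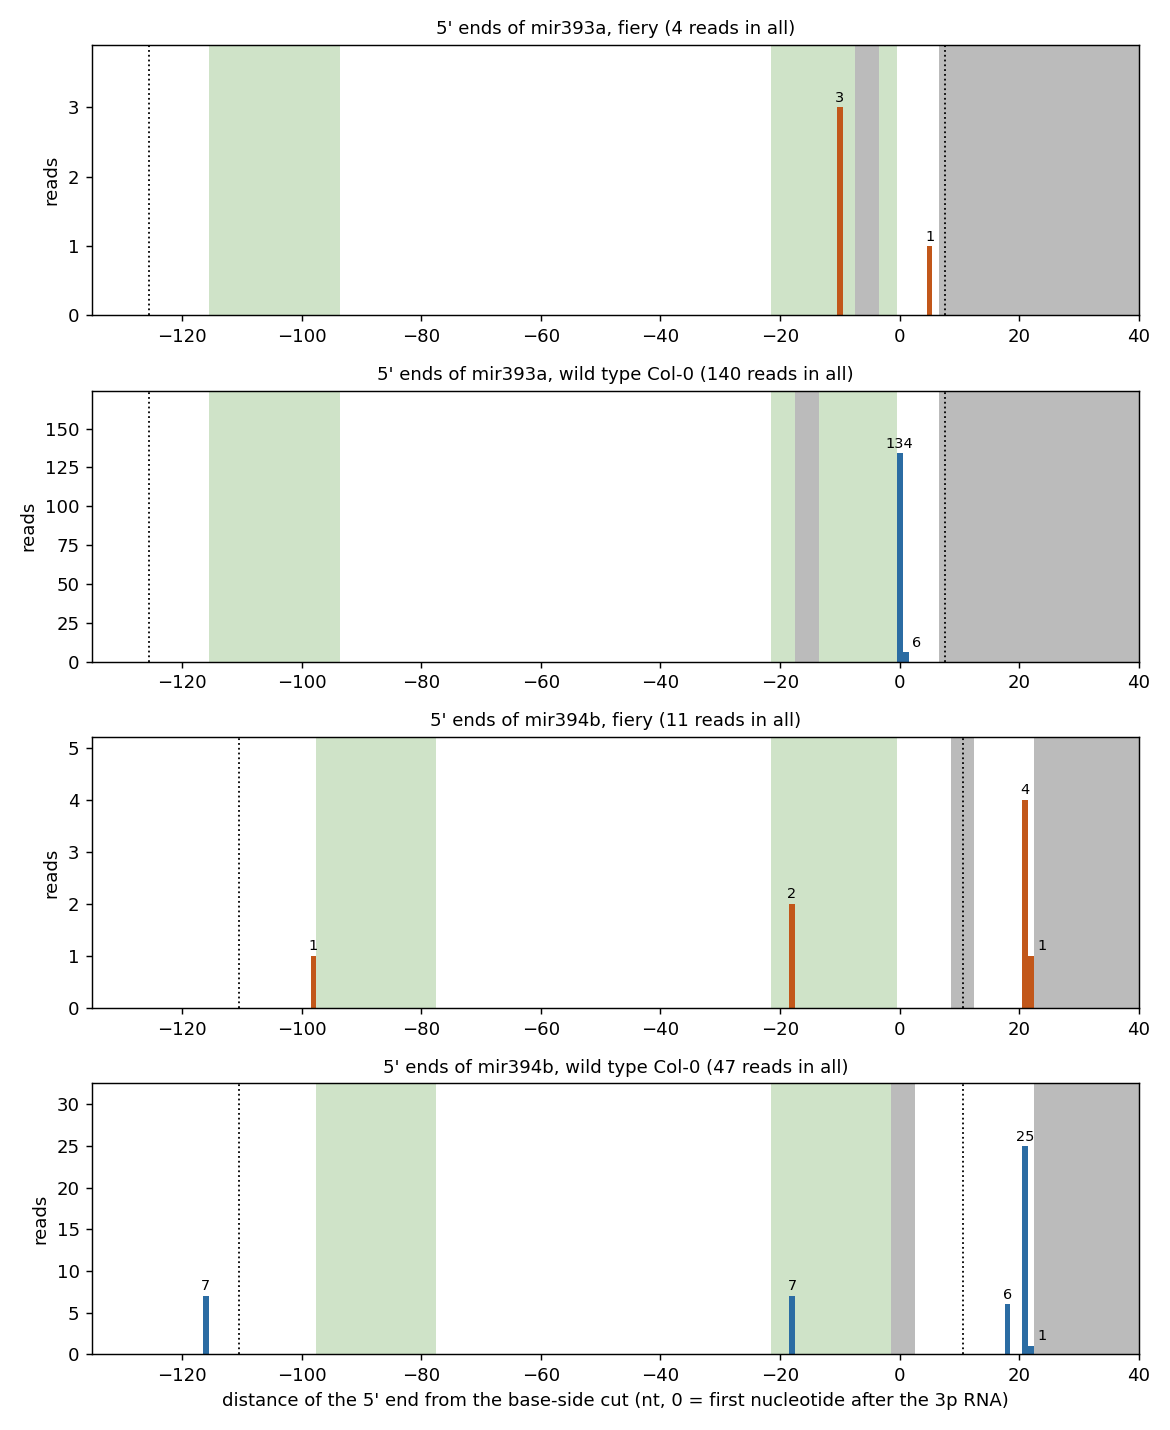
Reads by the position of their 5′ end, in nt from the base-side cut, for mir393a and mir394b in fiery and in wild type, with the number of reads above each bar and a separate axis of reads in each panel. Green marks the 5p and 3p RNAs, dotted lines the ends of the annotated precursor, and grey the ends whose fragment, run to the common 3′ end, has a length not listed in that library; the wild-type ends of mir393a lie at 0 and 1, while those of mir394b lie mostly at 18 to 22, and 4 single reads of mir394b farther away are not drawn.

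Several ends of mir394b outside the annotated precursor lay in a longer computed stem that this precursor does not include. When the locus was folded with 30, 50, 80 or 150 nt of flank on each side, the nucleotide at the wild-type end 19 nt before the 5p RNA paired with position 28568934, which is 16 nt beyond the base-side cut. The wild-type ends at 18 nt and 21 nt beyond the cut lay 2 and 5 nt past that partner. These distances run to the first nucleotide of the tag, unlike the overhang given for mir393a. The nucleotides at the 18 nt and 21 nt ends were themselves paired with the 5′ side in all 4 folds. The nucleotide 22 nt beyond the cut, an end in both libraries, was unpaired in all 4. Of the 20 nt directly below the 5p RNA, 13 were paired with the 3′ side in mir394b and 12 in mir393a. The counts were 13 in mir393b and 14 in mir394a. These are computed folds of the genomic sequence and no structure was measured.

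Between the libraries mir393b and mir394a shared 1 end each, and the number shared by precursors in general is not given here. mir394b shared 3 of its 5′ ends, which held 7 of 11 fiery reads and 33 of 47 wild-type reads. They comprised the end inside the 3p RNA and those 21 and 22 nt past the base-side cut. The rest of the fiery reads were single ones. In fiery 3 single reads began 812 to 1370 nt past the end of the annotated precursor, towards the next protein-coding gene (AT1G76140, 2191 nt downstream). In wild type 1 read began 223 nt before the 5p RNA, opposite the non-coding RNA gene AT1G09607. With only sense tags within 200 nt counted for every precursor, mir394b kept 8 fiery and 47 wild-type reads. Its ratio, wild type over fiery, was then 15.9 (7.43 to 38.9).

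The other precursors of the families had some ends at matching places and some at places of their own. mir393b had 17 of 17 wild-type reads and 6 of 24 fiery reads exactly at its base-side cut (chromosome 3, position 20691799), as mir393a had in wild type. The other 18 fiery reads of mir393b began at the first nucleotide of its 5p RNA (position 20691657), an end left by the base-side cut on the 5′ arm that no read of mir393a showed.
mir393b, fiery, 18 reads: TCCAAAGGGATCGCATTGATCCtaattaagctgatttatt
mir393b, fiery, 6 reads: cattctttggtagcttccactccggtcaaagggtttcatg
mir394a had 4 fiery reads 21 nt and 1 fiery read 22 nt beyond the end of the stretch that matches the 3p RNA of mir394b. In wild type 5 of its 11 reads lay 22 nt beyond it, 1 lay 16 nt and 5 lay 13 nt beyond. Its most frequent fiery tag is shown because it begins at the same run of letters as the main tag of mir394b. The end found in both libraries was instead the one 22 nt beyond, with 1 fiery and 5 wild-type reads. The base-side cut of mir394a would likewise give 48 nt, a length missing from wild type.
mir394a, fiery, 4 reads: taaaaccctcttgatctatatacaagt
A tag of 27 nt at the same distance from the cut was thus found in both miR394 precursors. In mir394a it rested on 4 fiery reads, and no wild-type read began there. Both base-side cuts would give 48 nt, so the shared length and the shared distance are 1 observation.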

How the data were processed

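The deposited values are read counts per distinct tag and precursor name, not normalised as far as the files show, 1 table per library. The submitters' processing notes name Bowtie and TAIR10 without their role; the aligner's version and the trimming were not given in the sources used here. Per the labels' protocols, ribosomal RNA was depleted and products were amplified in 18 PCR cycles. Tags were placed on TAIR10.1 (RefSeq) by exact search with a seed of 26 nt; all matched, and those of mir393a and mir394b at a single place, on the sense strand. Copies of mir405 were counted together, which left 151 precursors. The common 3′ end of a precursor is the most frequent one among tags below the longest lengths (35, 40, 45 and 50 nt left out). Shares carry Clopper-Pearson and ratios exact conditional binomial 95% intervals; a count of 0 allows 3 counts. No test was possible with 1 library per group. Intervals and placement were tested on simulated data. The members, the auxin list and the alternatives were chosen with earlier results of these data known. The 4 family precursors and examples of the list were named; neighbours in rank or with a cut at a missing length were named after their values were seen. Folds were made with RNAfold 2.7.2, and values and figures with Python 3.11.15, pandas 2.3.3, scipy 1.17.1 and matplotlib 3.10.9.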

Additional observations from a re-analysis of the deposited data

How the results depend on the processing

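Of 61 values under alternatives, 34 stayed within the counting interval (or, for counts, within 1.5 times) of the reported value, 27 moved and 0 reversed. The 4 on mir393b, mir394a and the minimum for the auxin list were chosen after seeing the data. With distinct tags counted once, shares became 0.114% and 0.295% for mir393a in fiery and wild type, and 0.399% and 0.886% for mir394b. The ratios, wild type over fiery, fell to 2.59 (0.188 to 35.8) and 2.22 (0.617 to 7.72), with intervals that held 1, so the large ratios rest on the abundance of a few tags. The main ends were then tied, at 50% of mir393a in either library and at 14.3% (fiery) and 16.7% (wild type) of mir394b. With only tags of 35 nt or less, shares were 0.0539%, 1.76% and, for mir394b in fiery, 0.0673%. The ratios were 32.7 and 5.97, and the main end of mir394b held 80% in fiery and 78.1% in wild type. With only longer tags the main end of mir394b was the one inside the 3p RNA in fiery (33.3%, 2 of 6 reads) and was tied in wild type (46.7%, 7 of 15 reads at each of 2 ends); mir393a gave no value. Without the precursors with most reads, wild-type shares were 1.62% (mir393a) and 0.543% (mir394b). Divided by the median ratio of 31 precursors (1.92), the ratios were 49.8 and 6.09. Precursors at least 2-fold higher in wild type or in fiery were 32 and 31 of 81 with at least 30 reads, and 6 and 6 of 14 with only short tags. No paired analysis was possible because each group has 1 library. Depth limits the fiery ends most, with 4 and 11 reads.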
